A study of Capra hircus with 6 samples.

Results

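The early response genes described here are the EGR zinc finger factors EGR1, EGR2 and EGR3, the orphan nuclear receptors NR4A1, NR4A2 and NR4A3, the early response proteins IER2 and IER3, the phosphatase DUSP1 and the RNA-binding protein ZFP36. They were chosen by name, with earlier results of these data known, and are 10 of the 26938 loci in the deposited gene comparison table. The symbols of 9 stand in its gene column. NR4A1 is listed there as LOC102185438 and was found through its gene ID in a later RefSeq goat annotation (ARS1.2) that places it on the same chromosome. All 10 had a mean FPKM (fragments counted per kilobase of exon and scaled by the mapped fragments of a library) of at least 1 over the 3 coat colors, the minimum used here, as did 13814 loci in all.

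The RNA came from flank skin of 6 female Changthangi Pashmina goats (spelled Chanthangi in the labels) aged 26 months. Of these 2 were white, 2 brown and 2 black. The labels name no treatment, and in all goats the site was sheared and shaved and numbed with 2% lignocaine before a punch biopsy of about 7 mm. The pieces were rinsed, chopped and kept in RNAlater before they went into liquid nitrogen. Each deposited FPKM combines the 2 goats of a color. Values per goat and an SD could therefore not be had, no test between colors was made, and a difference between colors cannot be told apart from one between single goats. The table holds no fragment numbers, so no counting error is given beside the values.

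Early response genes are transcribed within minutes of a stimulus such as a growth factor, a cytokine, a hormone or mechanical stress, without new protein synthesis. MAP kinases and protein kinase A reach them through factors such as SRF, ELK proteins and CREB. Many of their transcripts are short-lived, and DUSP1 and ZFP36 belong to the negative feedback that ends the response. In skin these genes are known from wounding and ultraviolet light, and NR4A genes are known to be induced through MC1R and cyclic AMP in cultured melanocytes.

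Levels below are given in the order white, brown, black. EGR1, EGR2, EGR3, IER3 and ZFP36 were highest in white and lowest in black skin, an order held by 35% of the 13691 genes with enough FPKM and a value above 0 in every color. NR4A1, NR4A2 and DUSP1 were highest in brown and lowest in black skin, as were 21.5% of genes. NR4A3 was highest in brown and lowest in white skin (14.9% of genes), and IER2 was highest in black and lowest in brown skin (5.64% of genes). Each order rests on 1 pooled value a color. IER3 was the most abundant member, with a mean FPKM above that of 97.3% of genes, and NR4A3 the least abundant, above 9.40%.

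**Figure D1:**
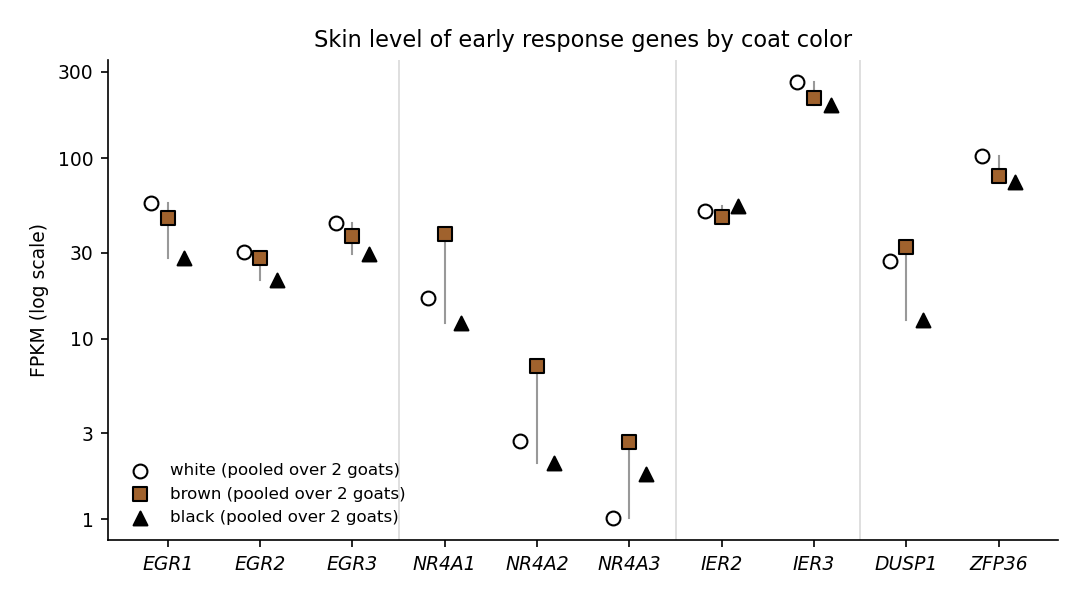
FPKM of the 10 genes (vertical axis, log scale) in white, brown and black skin, 1 point a color pooled over 2 goats, so no error bars can be drawn. Gray lines join the lowest and the highest value of a gene; the brown squares of NR4A1, NR4A2 and NR4A3 stand above the other colors, while the 3 values of IER2 lie between 47.4 and 54.5.

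Colors were compared by log2 ratios of plain FPKM, and a gene was counted where its ratio reached 2-fold, the fold limit in the methods of the study. Over all genes the ratios to black were shifted upward, with medians of 0.24 in white (13704 genes) and 0.21 in brown (13708 genes), while brown against white had a median of -0.03. Ratios called relative to the median have these values subtracted. Of the 10 members, 2 (EGR1 and DUSP1) were at least 2-fold above black in white skin and none was below, beside 9.49% and 2.05% of all genes. Relative to the median none was above and 1, NR4A3, was below (5.19% and 3.39% of all genes). In brown against white, 3 members (NR4A1, NR4A2 and NR4A3) were above 2-fold and none below, beside 2.09% and 4.08% of all genes. In brown against black, 3 members (NR4A1, NR4A2 and DUSP1) were above and none below, beside 3.12% and 1.02%. Relative to the median the members' counts in both brown comparisons were the same, beside 2.33% above and 3.81% below for white as the base and 1.6% and 1.62% for black as the base. Without NR4A1, 2 of 9 members were past 2-fold in each comparison. The members' median ratio was 0.48 in white against black, -0.11 in brown against white and 0.50 in brown against black. The comparisons share colors and are not independent of each other.

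**Figure D2:**
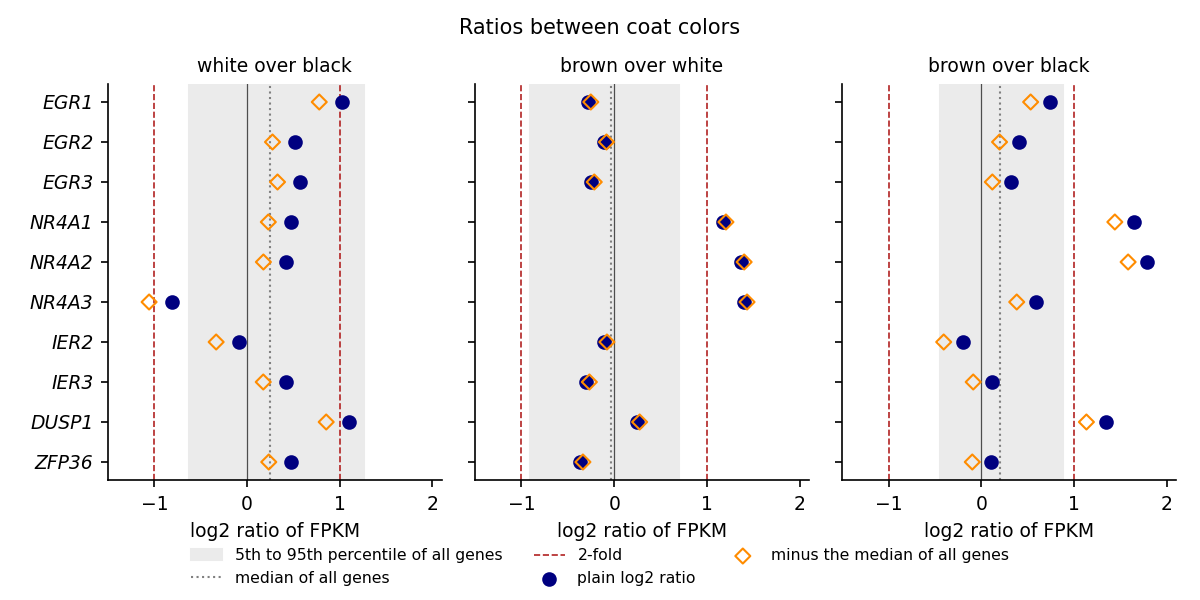
Log2 ratio of FPKM (horizontal axis) of each gene in the 3 comparisons. Filled circles are plain ratios, open diamonds ratios minus the median of all genes, gray bands span the 5th to 95th percentile of all genes, dotted lines mark their median and dashed lines 2-fold; the NR4A genes lie beyond the band in brown over white (1.17 to 1.40), and NR4A1, NR4A2 and DUSP1 beyond it in brown over black (1.34 to 1.79).

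All 3 NR4A receptors were more than 2-fold higher in brown than in white skin by plain ratios, and NR4A1 was under 2-fold (log2 ratio 0.95) relative to the median of 13 reference genes such as ACTB and GAPDH. They are nuclear receptors without a known physiological ligand, and are regulated largely through their own transcription. NR4A1 (Nur77) had 16.9 FPKM in white skin, 38.1 in brown and 12.2 in black. Brown stood apart above the other colors, 2.26-fold over white and 3.13-fold over black (log2 ratios 1.17 and 1.65, or 1.21 and 1.44 relative to the median). An equal or larger ratio was found in 1.37% of all genes for brown over white and in 0.540% for brown over black. The locus lies on chromosome 5 (26809971 to 26813947). Coordinates are those of the deposited table, counted from 1, and its genome build is not given in the sources used here.

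NR4A2 (Nurr1), on chromosome 2 (39309994 to 39315778), had lower levels with similar ratios. It had 2.73 FPKM in white skin, 7.05 in brown and 2.04 in black. Brown was again highest, 2.58-fold over white and 3.46-fold over black (log2 ratios 1.37 and 1.79), and 0.883% and 0.438% of genes had ratios as large. NR4A1 and NR4A2 were thus at least 2-fold higher in brown than in each other color, as were 66 of 13691 genes, or 0.482%. White and black skin lay closer together, with log2 ratios of white over black of 0.47 for NR4A1 and 0.42 for NR4A2, or 0.23 and 0.18 relative to the median.

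NR4A3 (NOR1), on chromosome 8 (63219019 to 63260862), was the scarcest of the family and had another order. It had 1.01 FPKM in white skin, 2.68 in brown and 1.78 in black. Brown was highest, 2.64-fold over white (log2 ratio 1.40), but its log2 ratio to black was only 0.59. White was lowest, with a log2 ratio to black of -0.81, or -1.06 relative to the median, and 3.01% of genes had a ratio as low. These levels are near the minimum, and with a pseudocount of 1 FPKM the log2 ratio of brown over white was 0.87.

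Ratios between genes of the same color do not depend on how colors are scaled to each other. NR4A2 stood at 0.162, 0.185 and 0.168 of NR4A1 in the 3 colors, nearly 1 proportion. NR4A3 stood at 0.0601, 0.0704 and 0.147 of NR4A1, so its proportion was largest in black skin. The family's summed FPKM was 20.6 in white, 47.8 in brown and 16.0 in black, of which NR4A1 gave 81.9%, 79.6% and 76.1%.

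Pigment cell markers were low in white skin. All 5 melanocyte markers were lowest there, and 3 were highest in brown, among them the melanin enzymes TYR (0.704, 2.48 and 1.98 FPKM) and DCT (1.05, 5.60 and 2.501) and the melanosome protein MLANA (5.86, 14.8 and 5.95). Their summed FPKM was 11.5, 55.0 and 51.1, to which PMEL gave 3.77, 22.5 and 30.9 and TYRP1 0.120, 9.72 and 9.79. DCT and MLANA were past 2-fold in brown over black (log2 ratios 1.16 and 1.31) as well as over white. TYR, TYRP1 and PMEL were past 2-fold in brown over white but not between brown and black. T cell markers were lowest in brown skin in 5 of 5 cases, with sums of 28.3, 16.0 and 22.3 FPKM. Other lists shared this in part, with 3 of 5 smooth muscle markers and 3 of 4 B cell markers lowest in brown. Only 1 of the B cell markers reached the minimum FPKM. The part of these cells in the NR4A values was not tested. In whole skin, fewer cells of a type and less RNA per cell cannot be told apart.

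The EGR factors were lowest in black skin. EGR1, a factor induced by growth factors and wounding, had 56.6 FPKM in white skin, 46.5 in brown and 27.9 in black. Black lay apart below the others, with white 2.03-fold over it (log2 ratio 1.02) and brown at a log2 ratio of 0.74. Relative to the median these ratios were 0.78 and 0.53, under 2-fold, and 8.92% of genes had an equal or larger ratio of white over black. EGR1 lies on chromosome 7 (46017004 to 46020494).

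EGR2 (Krox20), known in mice from Schwann cells and from hair shaft progenitors, had 30.4 FPKM in white skin, 28.05 in brown and 21.2 in black. White over black came to a log2 ratio of 0.52, or 0.27 relative to the median. EGR3 had 43.9 FPKM in white skin, 37.0 in brown and 29.6 in black, with a log2 ratio of white over black of 0.57, or 0.33 relative to the median. Neither gene reached 2-fold in any comparison of plain ratios. An equal or larger ratio of white over black was found in 29.9% of genes for EGR2 and in 26.4% for EGR3. EGR2 lies on chromosome 28 (16773446 to 16779564) and EGR3 on chromosome 8 (68211338 to 68211692). The EGR3 locus spans only 355 bp, and 1.16% of loci have a smaller span. How far so short a locus affects its FPKM beside that of EGR1 (3491 bp) was not tested. The level of EGR3 against other genes, and sums that include it, are therefore uncertain.

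White and brown skin differed little for this family, with log2 ratios of brown over white of -0.28 for EGR1, -0.12 for EGR2 and -0.25 for EGR3. These ratios turned above 0 when the colors were scaled to equal FPKM sums. A single locus, LOC106502857, held 66.1% of the sum in white and 37.2% in brown. With equal sums without that locus the ratios were -0.25, -0.08 and -0.22. The summed FPKM of the family was 130.9 in white, 111.5 in brown and 78.6 in black. EGR1 gave 43.2%, 41.7% and 35.4% of it, the smallest share in black skin. EGR2 stood at 0.537, 0.604 and 0.762 of EGR1, and EGR3 at 0.777, 0.797 and 1.06, both highest in black. NR4A1 stood at 0.298, 0.820 and 0.437 of EGR1, highest in brown.

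DUSP1, a phosphatase that switches off p38, JNK and ERK kinases, was also low in black skin. It had 27.1 FPKM in white skin, 32.0 in brown and 12.6 in black. White and brown lay close together (log2 ratio of brown over white 0.24) and apart from black. With colors scaled to equal FPKM sums brown was apart, at 1.16 over white, and white was at 0.76 over black. With equal sums without LOC106502857 these ratios were 0.27 and 0.99, and black was again apart. White was 2.14-fold and brown 2.53-fold over black, with log2 ratios of 1.10 and 1.34, or 0.85 and 1.13 relative to the median. An equal or larger ratio was found in 7.29% of genes for white over black and in 1.08% for brown over black. Among the members DUSP1 alone was at least 2-fold lower in black than in each other color by plain ratios, as were 1.77% of genes. It lies on chromosome 20 (4550739 to 4553239).

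Epithelial markers were lowest in black skin too. This held for all 6 basal keratinocyte markers (sums of 17449, 22106 and 13421 FPKM), for 6 of 6 matched suprabasal markers (11002, 10909 and 8199) and for 6 of 7 matched markers of the inner root sheath and hair matrix (7741, 4736 and 4125). It held for 5 of 6 fibroblast markers (2460, 2051 and 1561) and 4 of 4 mast cell markers (57.2, 42.4 and 31.9) as well. Black was lowest in many genes of any kind, with white above brown in 35% of 13691 genes and brown above white in 21.5%. Relative to the median of all genes, the medians of these lists over black were 0.44, 0.58, 0.98, 0.69 and 0.56 in white. In brown they were 0.50, 0.33, 0.18, 0.26 and 0.23. Neutrophil markers were highest in black skin in 5 of 6 cases, with sums of 72.3, 544 and 1869 FPKM that came mostly from S100A8, S100A9 and S100A12, genes that stressed keratinocytes also express. The part of these cells in the EGR1 and DUSP1 values was not tested. The skin label fitted its defining keratins, since KRT14 had 8995, 12437 and 7238 FPKM. Skeletal muscle markers summed to 1.71, 1.25 and 2.80 FPKM and adipocyte markers to 1.08, 0.720 and 1.503, with MYL1 and LEP listed at 0 in all colors.

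IER2, IER3 and ZFP36 were abundant and differed less between colors than the other members. EGR2, at most 1.43-fold apart, was close to ZFP36 and had the same color order. IER2, a small nuclear protein of the early response, had 51.2 FPKM in white skin, 47.4 in brown and 54.5 in black, at most 1.15-fold apart. IER3, a stress-induced regulator of cell survival, had 264.6 FPKM in white skin, 215 in brown and 198 in black, at most 1.34-fold apart. ZFP36 (tristetraprolin), which binds AU-rich elements of cytokine transcripts and recruits deadenylases, had 102 FPKM in white skin, 79.2 in brown and 73.4 in black, at most 1.39-fold apart. None of the 3 reached 2-fold in any comparison. Brown was above white in these genes only with equal FPKM sums that included LOC106502857. The sign of their ratios of brown to black, and of IER2 between white and black, also differed between scalings. IER2 lies on chromosome 7 (9492545 to 9494274), IER3 on chromosome 23 (26461060 to 26462153) and ZFP36 on chromosome 18 (47941734 to 47944278).

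IER3 and ZFP36 kept nearly 1 proportion, with IER3 at 2.59, 2.71 and 2.70 times ZFP36. Set against ZFP36, NR4A1 stood at 0.165, 0.481 and 0.166, so white and black had almost the same value and brown alone was apart. DUSP1 stood at 0.265, 0.404 and 0.172 of ZFP36 and EGR1 at 0.553, 0.587 and 0.379, both lowest in black. IER2 was highest in black, at 0.5004, 0.599 and 0.742.

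**Figure D3:**
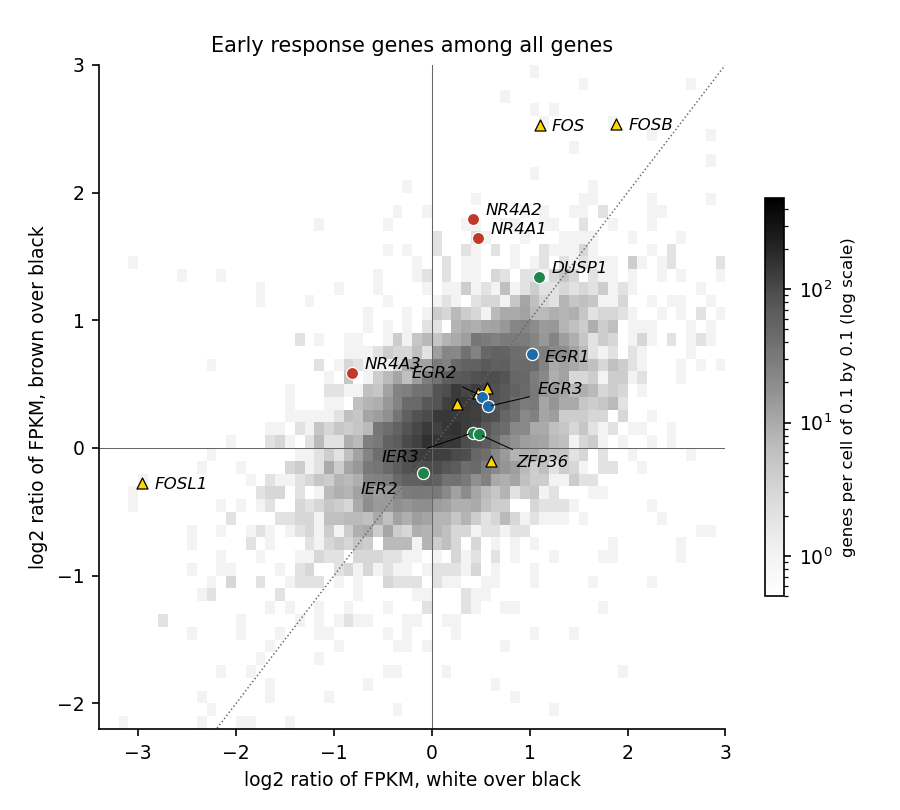
Log2 ratio of white over black (horizontal) against brown over black (vertical); gray cells count genes with a mean FPKM of at least 1 and a value above 0 in every color (13691 genes, of which those beyond the axes are not drawn), blue circles are EGR, red NR4A and green the other members, and yellow triangles the FOS, JUN and ATF3 factors. White equals brown on the dotted diagonal; NR4A1 and NR4A2 lie above most gray cells, at 0.47 and 0.42 horizontally and 1.65 and 1.79 vertically, while EGR2, EGR3, IER2, IER3 and ZFP36 lie among the darkest.

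The FOS and JUN factors, which pair as AP-1, are known to be induced with these genes. Counts of the related lists are to be read beside the shares of all genes, which by plain ratios were 9.49% above and 2.05% below black in white, 2.09% and 4.08% above and below white in brown, and 3.12% and 1.02% above and below black in brown. FOS had 27.6, 74.1 and 12.8 FPKM and FOSB 6.65, 10.5 and 1.81, each highest in brown and lowest in black. Of 7 genes of this list, 2 were past 2-fold above black in white and 1, FOSL1, below it (1.66, 10.7 and 13.0 FPKM), and relative to the median FOS was under 2-fold there, with 0.86. In brown over white 2 were above, FOS and FOSL1 (log2 ratios 1.43 and 2.69), while FOSB had 0.65. In brown over black 2 were above, FOS and FOSB (2.53 and 2.54), and none was below in either comparison. JUNB (175, 186 and 146 FPKM) and FOSL2 (113, 69.1 and 74.3) did not reach 2-fold.

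Of 11 further early response transcription factors, 2 were above black in white skin, and the brown comparisons had none. These were the Krüppel-like factors KLF2 (48.0, 38.7 and 20.8 FPKM) and KLF4 (78.0, 54.6 and 35.4), with log2 ratios of white over black of 1.21 and 1.14 that were under 2-fold relative to the median. ID1, an inhibitor of helix-loop-helix factors, had 51.2, 46.1 and 70.3 FPKM. EGR4, the remaining EGR gene, was listed at 0 in white and black and at 0.0136 FPKM in brown, below the minimum. The list's median for white over black was 0.31, beside 0.24 for all genes.

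Of 26 early response effectors, 2 were above and 2 below black in white skin, 1 was above white in brown and 1 above black in brown. CTGF, a matrix signalling protein, had 81.2, 52.2 and 27.3 FPKM (log2 ratio of white over black 1.57, or 1.33 relative to the median). GEM, a small GTPase, had 8.84, 8.58 and 4.02 FPKM, with white and brown together above black. THBS1, a matrix glycoprotein, was lowest in white, with 78.6, 183.9 and 201 FPKM. SOCS3, a cytokine feedback inhibitor, was highest in black, with 8.75, 10.8 and 19.9 FPKM. Relative to the median, GEM was under 2-fold in both comparisons with black, and SOCS3 was past 2-fold below black in brown. The list's medians in the 3 comparisons were 0.24, -0.13 and 0.08.

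Of 14 other dual-specificity phosphatases and Sprouty and SPRED inhibitors, relatives of DUSP1 in function, 1 was above black in white skin and the brown comparisons had none. That gene was DUSP2, a nuclear phosphatase of immune cells, with 27.2, 14.8 and 12.5 FPKM and a log2 ratio of 1.13, or 0.88 relative to the median. DUSP14, the most abundant, had 149, 75.9 and 75.4 FPKM, with brown near black where DUSP1 had brown near white. Among 11 kinases 1 was past 2-fold, RPS6KA5, a kinase of CREB and histone H3, with 5.52, 4.49 and 2.71 FPKM and a log2 ratio of white over black of 1.02, or 0.78 relative to the median. MAP2K2 had 51.3, 50.5 and 49.8 FPKM.

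Among the factors that act on early response promoters, 3 of 14 were past 2-fold above black in white skin, and the brown comparisons had none. These were the co-activators CREBBP (10.2, 6.76 and 4.10 FPKM) and MKL2 (9.55, 6.99 and 4.32) and the ETS factor ELK4 (14.3, 11.6 and 7.14). Their log2 ratios were 1.31, 1.15 and 1.01, and relative to the median CREBBP alone was past 2-fold, with 1.07. The list's median for white over black was 0.52. None of 5 NAB co-repressors of EGR proteins and retinoid X receptors, partners of NR4A1 and NR4A2, reached 2-fold. NAB2 had 33.4, 26.9 and 24.5 FPKM and RXRA 31.9, 24.8 and 17.5.

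**Figure D4:**
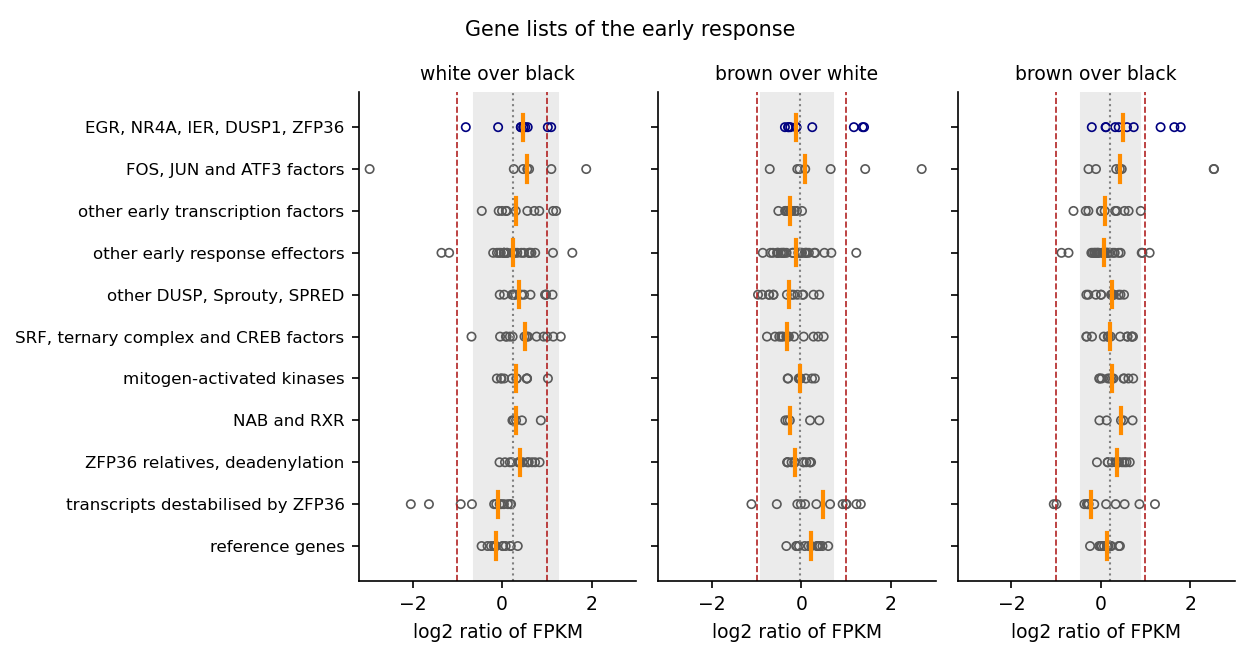
Log2 ratio of FPKM (horizontal axis) of every gene with enough FPKM among the members and in 10 related lists, by comparison. Each circle is a gene, orange bars are list medians, gray bands the 5th to 95th percentile of all genes, dotted lines their median and dashed lines 2-fold; in brown over black NR4A1, NR4A2 and DUSP1 lie past 2-fold, and FOS and FOSB beyond them at 2.53 and 2.54.

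None of 13 ZFP36 relatives and deadenylation genes reached 2-fold. ZFP36L2 had 92.7, 74.2 and 58.2 FPKM and the poly(A)-binding protein PABPC1 290.4, 262 and 220, each in the color order of ZFP36. Transcripts known to be destabilised by ZFP36 spread more widely, with list medians of -0.09, 0.49 and -0.21. Of 12, 2 were past 2-fold below black in white skin, 3 above and 1 below white in brown, and 1 above and 1 below black in brown. Relative to the median these counts were 3 below, 4 above and 1 below, and 1 above and 2 below. The prostaglandin enzyme PTGS2 had 7.24, 17.0 and 7.33 FPKM, with brown alone high. The chemokine CXCL8 had 2.18, 4.34 and 8.98 FPKM and the urokinase receptor PLAUR 6.88, 17.3 and 21.4, each lowest in white. TNF was lowest in brown, with 4.01, 1.85 and 3.67 FPKM. None of 13 reference genes, used as a scaling alternative, reached 2-fold, and their medians were -0.14, 0.22 and 0.14.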

How the data were processed

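Skin RNA of 2 white, 2 brown and 2 black goats was sequenced as paired reads of 100 bases. The authors kept reads of quality over 20 and length over 25, aligned them with TopHat 2.1.0 and Bowtie 2.2.6, with 1 seed mismatch and all positions of multiply mapped reads reported, and measured transcripts with Cufflinks 2.2.1. The submitters' notes name Bowtie2, version 2. The FPKM values were deposited by the authors as 1 value per color over its 2 goats, and CuffDiff's library normalization is not given in the sources used here. Reads that map to several places can raise related genes together. The table's fold changes, test statistics, p-values and q-values are the authors' own comparisons and were not used.

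Log2 ratios were computed without a pseudocount (Python 3.11.15, pandas 2.3.3) for genes with a mean FPKM of at least 1 over the colors and a value above 0 in both. With 1 pooled value a color, no test was made, and the counting step was tested on simulated data. Of 138 genes in 10 related lists, 131 were matched by symbol, gene ID or alias, and 15 marker lists served as cell type checks. Where several loci shared a symbol, the one with the highest mean FPKM was taken. In 398 loci a placeholder name was replaced through the gene ID. Chromosomes were assigned by the gene names each sequence shares with the later annotation (lowest share 69.4%, 30 sequences). The members and lists were chosen with earlier results of these data known. Genes named beside the members were, per list and comparison, chosen from up to 4 past 2-fold with the largest ratio and up to 2 others with the highest FPKM; EGR4 was named after its values were seen. Alternatives were another pseudocount, filter, scaling and fold limit.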

Additional observations from a re-analysis of the deposited data

How the results depend on the processing

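No paired analysis was possible because the table holds 1 value per color and no column per goat, and for the same reason no goat could be left out. Counts past 2-fold follow in the order white over black, brown over white, brown over black, and were 1582, 846 and 568 for all genes and 2, 3 and 3 for the members. For all genes, no filter gave 3415, 2364 and 1998, a mean FPKM of at least 5 gave 733, 390 and 168, a limit of 1.5-fold gave 4312, 2628 and 2738, and a log2 limit of 2 gave 172, 101 and 69. A pseudocount of 1 FPKM gave 907 in the first and 275 in the last comparison, and subtracting the median of genes of similar span gave 996 (600 higher, 396 lower) and 375 (194 higher, 181 lower). Scaling to equal FPKM sums gave 5502 and 4092 in the brown comparisons. In those sums a single locus, LOC106502857, held 66.1%, 37.2% and 60.3% in white, brown and black. An alternative without it was added after seeing the data, as was the one without NR4A1.

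Among the members, white over black had 1 past 2-fold with the pseudocount (DUSP1), 1 relative to the median and 1 with equal sums (NR4A3 below black in each), and 0 with equal sums without that locus. Brown over white had 1 at a mean FPKM of at least 5 (NR4A1, the other NR4A genes being filtered out). Brown over black had 5 with equal sums and 5 at 1.5-fold. A log2 limit of 2 left 0 in every comparison. Of 264 values of single members under these alternatives, 248 kept their side of 2-fold, 10 no longer passed, 6 newly passed and none past 2-fold changed sign. In the main setting only 2, 3 and 3 of 10 members were past 2-fold, so most of the 264 values started under it. The log2 ratio of NR4A1 in brown over white was 0.95 relative to the reference genes, the lowest over the scalings, and that in brown over black ran from 1.44 to 2.23. With the goats of a color pooled and no fragment numbers in the table, no error is given for these values.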

Other observations

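The loci beside the members on their chromosomes were compared as a description. Of 20 neighbors with a mean FPKM of at least 1, 1 was past 2-fold in white over black, 2 in brown over white and 1 in brown over black. The shares of all genes above and below 2-fold were 9.49% and 2.05%, 2.09% and 4.08%, and 3.12% and 1.02%. So few neighbors past 2-fold do not set them apart from all genes. The neighbors past 2-fold were NEURL1B before DUSP1 (white over black 1.14), RPRM far beyond NR4A2 (brown over white -1.16) and a locus beside NR4A1, named with their values in view. The last lies 820 bp beyond NR4A1 on chromosome 5 (26814768 to 26817086). This locus, LOC106502091, had 10.2, 21.6 and 8.05 FPKM in the order white, brown, black, with log2 ratios of brown of 1.08 to white and 1.43 to black, beside 1.17 and 1.65 for NR4A1. The files name no gene for it, and whether its reads belong to NR4A1 transcripts was not tested. On the other side of NR4A1, ATG101, an autophagy gene 8435 bp away, had 31.0, 22.1 and 24.1 FPKM, lowest in brown. FLOT1, a membrane scaffold gene 583 bp beyond IER3, had 32.4, 27.1 and 25.1 FPKM, the color order of IER3.

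Likeness to a member was the distance between a gene and that member in the pair of log2 ratios to black, among 8326 genes with a gene name and a mean FPKM of at least 5, over 3 pooled values. Members and loci with a placeholder name, such as LOC106502091, were left out. None of these genes lay within 0.25 of NR4A1 or NR4A2, but NR4A2, with a mean FPKM of 3.94, was itself below that minimum. Among all 13691 genes with a mean FPKM of at least 1, others did lie within 0.25 of NR4A1. For example, 2 had log2 ratios to black from 0.3 to 0.4 in white and from 1.5 to 1.6 in brown. Among the 8326 genes the nearest to NR4A1 were CLEC2A (9.16, 15.8 and 6.03 FPKM in white, brown and black, distance 0.29), ACKR4 and CEBPZOS. The same 3 genes were nearest to NR4A2. NR4A3 had 6 of the 8326 genes within 0.25, nearest the matrix gene THBS2 (20.4, 58.9 and 37.4 FPKM). DUSP1 had 10, nearest the calcium channel gene ITPR2 (7.17, 7.96 and 3.11 FPKM). EGR1 had 315, nearest TET2, CPEB2 and TTPAL, and EGR2, EGR3, IER2, IER3 and ZFP36 had between 1091 and 1329 each.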
